A study of Mus musculus with 19 samples.

Results

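The 5 genes described here, Xbp1, Edem1, Sil1, Asns and Slc7a5, serve the unfolded protein response and the amino acid response, and were followed in FDCPmix cells, a mouse blood progenitor line that grows in interleukin-3. They were chosen by gene symbol: each is the only symbol of 1 probe, so they make up 5 of 20205 probes and 5 of 9834 genes with a single symbol. The choice used no measured value of theirs as a rule, although earlier results of these data were known. The 19 arrays were 2-colour arrays, each setting the RNA of one culture, its own RNA, against a reference RNA. Treated cells with no stated time (4 arrays) had non-treated cells as reference. Cells taken 3, 7 and 12 h after tamoxifen, which binds the oestrogen receptor, came with 4 arrays a time and cells taken at 23 h with 3 (replicates 1, 3 and 4), all set against treated cells at 0 h. The labels call the 0 h cells treated as well, and state no genotype, transgene or dose. The labels also call the line an ES cell line, which nothing in them explains, and a protocol that names organs and control animals does not match cultured cells. Nothing says that replicates were separate cultures, so a p-value measures only the spread between these arrays.

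When unfolded proteins collect in the endoplasmic reticulum (ER), the sensors IRE1, PERK and ATF6 raise chaperones and degradation factors and slow translation. IRE1 cuts the Xbp1 messenger, and the joined product encodes an active transcription factor. Its known targets include Edem1, which steers misfolded glycoproteins to degradation. Sil1 is the nucleotide exchange factor of BiP, the main ER chaperone, encoded by Hspa5. PERK, and the sensor of uncharged tRNA GCN2, phosphorylate eIF2 alpha, which raises translation of the factor ATF4. ATF4 is known to raise Asns, the enzyme that makes asparagine, and Slc7a5, the light chain of the LAT1 transporter that takes up leucine and other large amino acids.

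All values below are log2 ratios of own RNA over reference, centred on each array's median. Base 2 and the own RNA as numerator are assumptions, so directions hold only if the numerator is as assumed. That direction rests on the design text, which sets the times against 0 h, and is not settled. An extreme value was repeated on 8 to 29 spots of each array. It was positive with own RNA in Cy5 and negative with own RNA in Cy3 on 18 of 19 arrays. Signs thus followed the dye label there. Either RNA as numerator could give this pattern, so it cannot decide the direction. Arrays of opposite dye correlated at -0.02 within groups and -0.03 between them (mean Spearman), arrays of the same dye at 0.16 and 0.06. In every group replicates 1 and 2 carried own RNA in Cy5 and replicates 3 and 4 in Cy3. The treated arrays were more spread over spots (SD 0.619 to 0.642) than the time course (SD 0.235 to 0.36). They were therefore fitted apart, with limma, with a term for dye and p-values adjusted over all features by Benjamini-Hochberg. Ratios give no level per gene, so the genes cannot be ranked by abundance, and less RNA per cell cannot be told apart from fewer cells of a type.

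The labels of 2 arrays, or their signs, are in doubt. On replicate 4 at 7 h the repeated extreme value had the sign opposite to its dye label, and over all probes the array had Pearson correlations of 0.04, 0.05 and -0.17 with replicates 1 to 3. Replicate 3 at 23 h had a deposited median of 0.233, where the other arrays lay between -0.012 and 0.024, and correlations of -0.21 and -0.13 with replicates 1 and 4. Its extreme value fits its dye label, so it is in doubt only from how its values came out. Both arrays were kept, and results that rest on them are given with and without them.

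No gene among the 5 passed an adjusted p of 0.05 in any comparison when all arrays were used. The background was as low: 0% of 15915 features passed in treated cells, and 0% of 16108 at 3 h, 0% of 16087 at 7 h, 0.0186% of 16088 at 12 h, 0% of 16115 at 23 h and 0% of 16024 for the mean of the 4 times. At an unadjusted limma p under 0.05, Asns passed in treated cells, where 6.21% of features did. Sil1 passed at 3 h (10.8% of features), Xbp1 at 12 h (6.25%) and Edem1 at 23 h (3.34%). For the mean of the times, Xbp1, Edem1 and Slc7a5 passed (7.19%). In simulated data for the treated arrays, the fit recovered 0% of features changed by 1 log2 unit and 56% of those changed by 2. At 12 h it recovered 100% and 99%, and at 23 h 90% and 98%. The simulated noise was independent between arrays. Changes under 1 log2 unit were not simulated, so recovery of smaller ones, such as the 12 h estimates below, is not known.

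**Figure D1:**
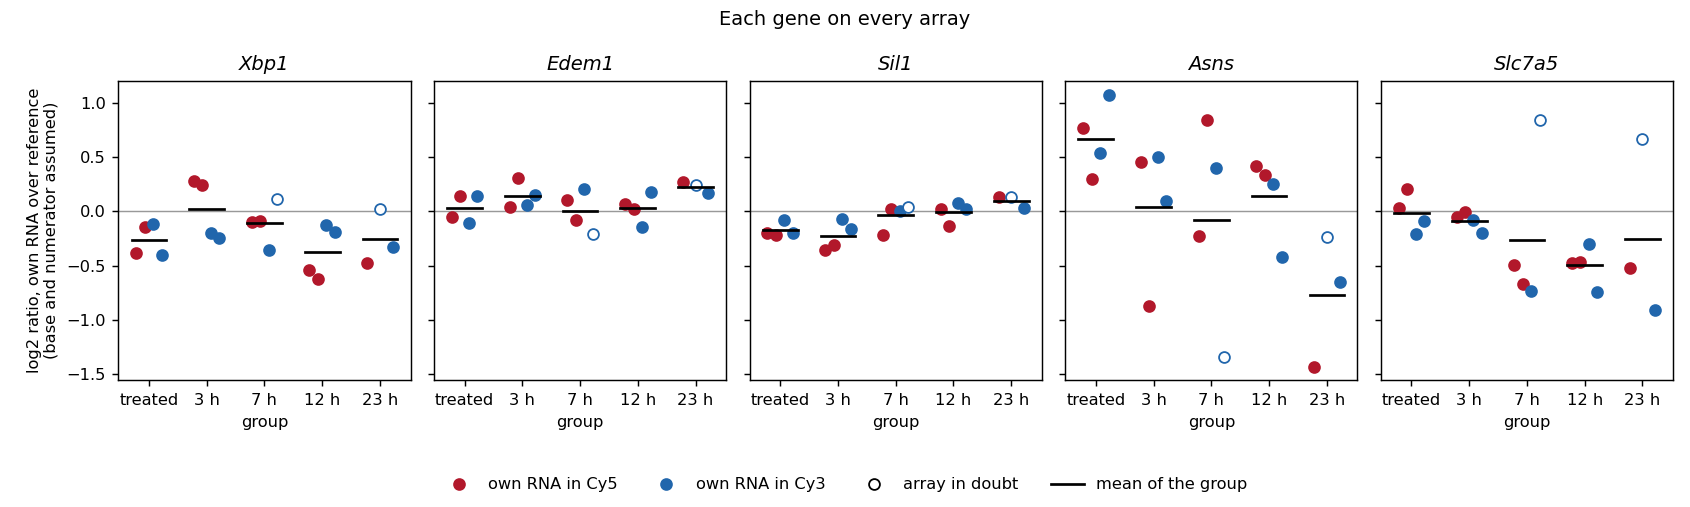
Log2 ratio of own RNA over reference (vertical axis) for each gene on all 19 arrays, by group. Points are arrays, red with own RNA in Cy5 and blue in Cy3, open where the array is in doubt, and bars are group means. Asns lies above 0 on all 4 treated arrays, and Slc7a5 lies below 0 at 7, 12 and 23 h except on the 2 open points.

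Xbp1 (probe 16689, NM_013842, GRCm38.p6 chromosome 11, 5520641 to 5525993) encodes the transcription factor of the IRE1 branch. Its probe's place in the transcript is not given, so the spliced and unspliced forms cannot be told apart. Xbp1 stood at -0.39, -0.14, -0.12 and -0.40 on treated replicates 1 to 4, all below 0, as did 7.59% of features measured on all 4 arrays. The difference was -0.26 (SE 0.12, n = 4, limma adjusted p = 0.803), and with the signs of the Cy3 arrays changed -0.0027. At 3 h it stood at 0.28, 0.25, -0.20 and -0.25, above 0 on both Cy5 arrays and below 0 on both Cy3 arrays. At 7 h the values were -0.10, -0.09, -0.36 and 0.11, the last on the array in doubt. At 12 h they were -0.54, -0.63, -0.13 and -0.19, and at 23 h -0.48, 0.02 and -0.33, with the 0.02 on the array in doubt. All 4 arrays lay below 0 at 12 h (7.01% of features), lower in Cy5 than in Cy3. The limma estimate at 12 h was -0.37 (SE 0.12, n = 4, adjusted p = 0.689), and over the 4 times it was -0.18 (SE 0.06, adjusted p = 0.651). Without the arrays in doubt the mean of the times was -0.24 (SE 0.06, adjusted p = 0.113), and with the Cy3 signs changed -0.018. In the order of group means, 3 h was highest and 12 h lowest, and the ranges of all neighbours in that order overlapped.

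Edem1 (probe 6005, NM_138677, chromosome 6, 108824045 to 108859356) encodes a mannosidase-like factor of ER-associated degradation. It stood at -0.05, 0.14, -0.11 and 0.14 on the treated arrays, on both sides of 0. At 3 h it stood at 0.04, 0.31, 0.06 and 0.15, all above 0, as did 11.1% of features. At 7 h the values were 0.11, -0.08, 0.21 and -0.21, and at 12 h 0.07, 0.03, -0.14 and 0.18. At 23 h the values were 0.27, 0.24 and 0.17, all above 0 (10% of features), the array in doubt included. The 23 h estimate was 0.23 (SE 0.09, n = 3, limma adjusted p = 0.9997), and without the array in doubt 0.22 (SE 0.10, adjusted p = 0.584). With the signs of the Cy3 arrays changed it was -0.02. The lowest group mean was 7 h and the highest 23 h, and each group overlapped its neighbours in that order.

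Sil1 (probe 13522, NM_030749, chromosome 18, 35266396 to 35499390), encodes the exchange factor of BiP. It stood at -0.20, -0.22, -0.08 and -0.20 on the treated arrays, all below 0, with an estimate of -0.17 (SE 0.10, n = 4, limma adjusted p = 0.807). At 3 h it stood at -0.36, -0.31, -0.07 and -0.16, again all below 0 (10.5% of features), farther below on the Cy5 arrays. At 7 h it was -0.21, 0.02, 0.00 and 0.04, and at 12 h 0.02, -0.13, 0.08 and 0.02, around 0 at both times. At 23 h it was 0.14, 0.13 and 0.03, all above 0. The 3 h estimate was -0.22 (SE 0.05, n = 4), rank 42 of 16108 features by the limma p, with an adjusted p of 0.426. The ranges at 23 h and 3 h did not overlap, as was so for 6.71% of features, 3.31% with 23 h the higher. For 0.982% all arrays lay above 0 at 23 h and below 0 at 3 h, as for Sil1. The difference of 23 h over 3 h was 0.30 (SE 0.08, adjusted p = 0.870), and a limma F-test over the 4 times gave an adjusted p of 0.756. Both had an unadjusted p under 0.05, as did 5.47% and 6.55% of features in these 2 tests. The 23 h over 3 h difference ran from 0.23 to 0.36 as each time-course array was left out in turn. With the signs of the Cy3 arrays changed it was 0.084, with -0.11 at 3 h and -0.034 in treated cells.

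Asns (probe 12193, NM_012055, chromosome 6, 7675165 to 7693209), asparagine synthetase, had the largest value of the 5 genes in treated cells. It stood at 0.77, 0.30, 0.54 and 1.08 on replicates 1 to 4, all above 0, as did 6.48% of features. The estimate was 0.67 (SE 0.16, n = 4, limma adjusted p = 0.792), higher than 97.5% of features tested. As each array was left out it ran from 0.54 to 0.80. With the signs of the Cy3 arrays changed it was -0.14, so its direction rests on the assumed reading of the dyes. The time course was scattered. At 3 h Asns stood at 0.46, -0.87, 0.50 and 0.09, and at 7 h at -0.23, 0.84, 0.40 and -1.34, the last on the array in doubt. At 12 h it stood at 0.42, 0.33, 0.25 and -0.42. At 23 h it stood at -1.43, -0.23 and -0.65, all below 0 (9.42% of features), with the value nearest 0 on the array in doubt. The 23 h estimate was -0.77 (SE 0.37, n = 3, adjusted p = 0.9997), and without the arrays in doubt -1.04 (SE 0.34, n = 2, adjusted p = 0.365). The SD between arrays was 0.38 to 0.95 at the 4 times, against 0.06 to 0.13 for Sil1.

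The Asns promoter is shown because the gene is the textbook case of the amino acid response, and because several genes with the same core were measured here. The window runs from 250 bases before the start to 50 after it, on the minus strand of chr6:7693160-7693459 (RefSeq, GRCm38.p6). Capitals mark CCACG, TGATGNAA (the amino acid response core bound by ATF and C/EBP factors) and GTTACA (the second element of the Asns promoter), searched on both strands.
Asns: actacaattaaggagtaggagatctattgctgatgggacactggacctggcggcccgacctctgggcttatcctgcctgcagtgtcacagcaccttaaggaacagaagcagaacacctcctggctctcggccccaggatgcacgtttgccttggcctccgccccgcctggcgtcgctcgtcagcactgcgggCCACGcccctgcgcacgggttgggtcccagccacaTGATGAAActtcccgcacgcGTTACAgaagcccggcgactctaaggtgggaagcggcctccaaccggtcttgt
The core begins 23 bases before the start and GTTACA 3 bases before it. Of the 32851 promoter windows of that length that were searched, 3.97% hold TGATGNAA and 8.25% hold GTTACA. Motifs were searched in the promoters of 3 of the 5 genes, Asns, Edem1 and Xbp1. No window was found for Slc7a5, and the promoter of Sil1 was not searched. Edem1 holds CCACG at 2 places and CCAAT once, which 32.8% and 37.4% of promoters hold. Its window, chr6:108828391-108828690 on the plus strand, lies inside the gene span given above, which begins at 108824045. Xbp1 holds none of the motifs searched: these 4, TGACGTGG and the full ER stress element. That ER stress element, CCAAT and CCACG parted by 9 bases, stands in 0.119% of promoters and in 8 of 21 ER chaperone genes with a window, Hspa5 among them.

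Of the genes in the 8 lists described below, 15 others have the core in their promoter. The windows of 24 bases below, for Asns and the 13 others with a single match, show how its variable base and flanks differ, while Aars and Slc7a7 hold it at 2 places. Capitals mark the core, read on the strand that carries it.
Asns: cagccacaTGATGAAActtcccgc
Slc1a4: gctggagaTGATGCAAcgcaggag
Gars: ccggtgcaTGATGAAAtagcgcag
Yars: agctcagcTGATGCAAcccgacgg
Tars: taaccagcTGATGCAAcgggactc
Iars: tctggaggTGATGCAAtactgaca
Atf3: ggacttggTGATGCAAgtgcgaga
Trib3: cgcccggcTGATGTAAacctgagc
Chac1: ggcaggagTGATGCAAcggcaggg
Nupr1: gccctgtcTGATGCAAtctggccc
Got1: ggcttgtaTGATGCAAccaatgca
Txndc5: agggggtgTGATGAAAccacttcc
Herpud1: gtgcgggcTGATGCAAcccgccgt
Faf2: tctaaaatTGATGAAAagatgaca
In treated cells the 16 genes with the core did not stand on 1 side: 7 lay above 0 and 9 below, with a median of -0.12. Asns (0.67), Slc1a4 (0.52) and Gars (0.50) were highest, while Got1 (-0.49), Trib3 (-0.26) and Herpud1 (-0.24) were lowest. Over the mean of the times 5 lay above 0 and 11 below. None passed the adjusted test with all arrays.

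Slc7a5 (probe 13316, NM_011404, chromosome 8, 121881146 to 121907686) is the transporter of large neutral amino acids. It stood at 0.04, 0.21, -0.21 and -0.09 on the treated arrays, above 0 in Cy5 and below in Cy3, with an estimate of -0.01 (SE 0.10, n = 4). At 3 h it stood at -0.05, -0.01, -0.08 and -0.20. At 7 h replicates 1 to 3 stood at -0.50, -0.68 and -0.74, and replicate 4, the array in doubt, at 0.84. At 12 h the 4 arrays stood at -0.48, -0.47, -0.30 and -0.75, and none of them is in doubt. At 23 h replicates 1 and 4 stood at -0.53 and -0.91, and replicate 3, the array in doubt, at 0.66. From 7 h on, every array outside doubt lay below 0, and both arrays in doubt lay above 0. At 12 h 7.01% of features lay below 0 on all 4 arrays, and the share with the full pattern was not counted. Usp25, Anxa1 and Ccl6, described below, showed the full pattern too, but they were picked for likeness to Slc7a5 over these same arrays. They are therefore no background for the pattern.

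With all arrays Slc7a5 did not pass at any time. The estimate was -0.27 at 7 h (SE 0.24, n = 4, limma adjusted p = 0.857), -0.50 at 12 h (SE 0.24, n = 4, adjusted p = 0.824), -0.29 at 23 h (SE 0.29, n = 3, adjusted p = 0.9997) and -0.29 over the mean of the times (SE 0.13, adjusted p = 0.679). Without both arrays in doubt it fell at 7 h by 0.66 (SE 0.08, n = 3, adjusted p = 0.00869), at 12 h by 0.50 (SE 0.07, n = 4, adjusted p = 0.0174) and at 23 h by 0.72 (SE 0.10, n = 2, adjusted p = 0.0174). No 12 h array was left out, and the 12 h estimate was the same as with all arrays. It passed because the spread that the times share in the fit was smaller (SE 0.07 against 0.24). In the same fit without both arrays, the mean of the times fell by 0.49 (SE 0.04, adjusted p = 0.00014), while 3 h stood at -0.09 (adjusted p = 0.612). In that fit 0.478% of features passed at 7 h, 0.249% at 12 h, 0.368% at 23 h and 2.14% for the mean of the times, so 1 of the 5 genes passed against these shares.

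That call depends on both arrays, and the choice to leave them out was made after the values were seen. Without replicate 4 at 7 h alone the mean of the times was -0.37 (adjusted p = 0.187), and without replicate 3 at 23 h alone -0.39 (adjusted p = 0.231). Of 31 alternative fits of that mean, 3 called it: without both arrays, with both signs turned (-0.49, adjusted p = 7.02e-06) and on the Cy5 arrays alone (-0.40, adjusted p = 0.0497). The array at 23 h is doubted from its outcome, and Slc7a5 is part of that outcome, so leaving it out or turning it favours the call. With the signs of the Cy3 arrays changed, the mean of the times was -0.11 and 12 h was 0.03. Without both arrays, 23 h over 3 h was -0.63 (SE 0.12, adjusted p = 0.209) and the F-test over the times gave adjusted p = 0.302, so a difference between times did not pass, as was so for all but 0.0749% and 0.0438% of features.

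**Figure D2:**
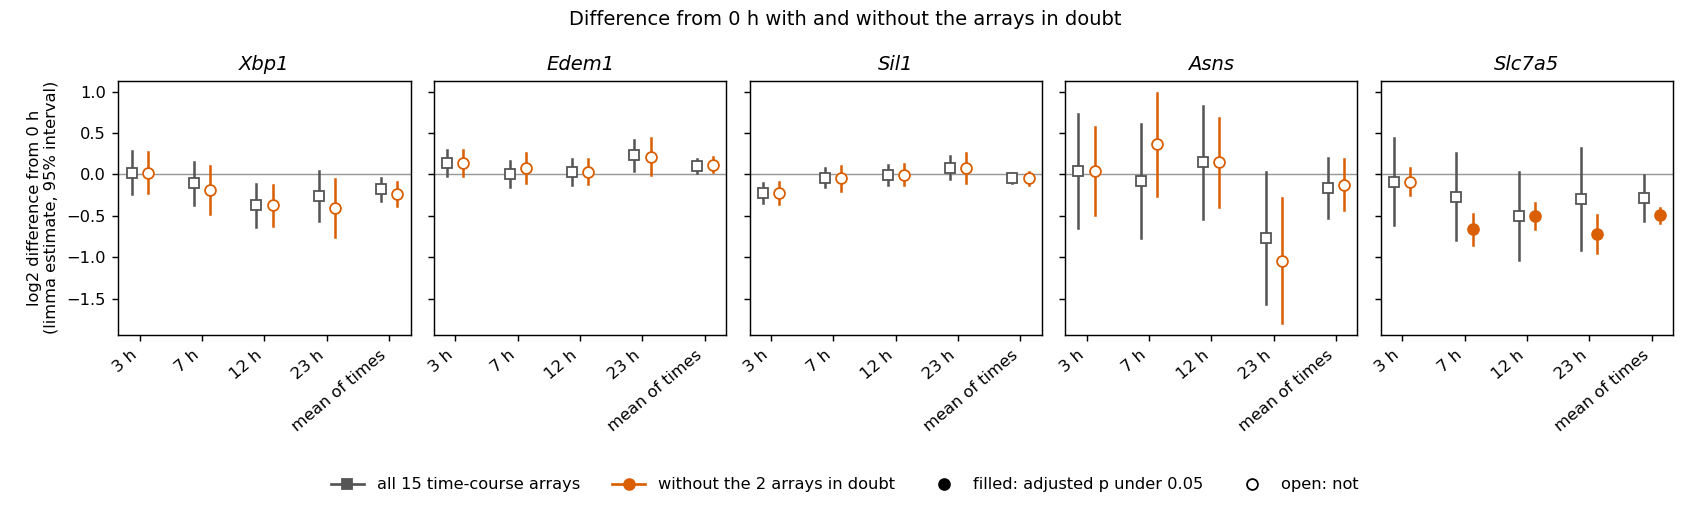
Limma log2 difference of each time, and of the mean of the times, over 0 h (vertical axis) with 95% intervals, for all 15 time-course arrays (grey squares) and without the 2 arrays in doubt (orange circles). Filled symbols passed an adjusted p of 0.05: only Slc7a5 at 7, 12 and 23 h and over the mean of the times, and only without both arrays.

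Some markers of granule-bearing cells also passed in the fit without both arrays in doubt, which was chosen after the values were seen. In that fit 3 of 4 measured granulocyte and monocyte markers passed as lower over the mean of the times, where 1.35% of features did: Mpo fell by 0.37, Elane by 0.49 and Lyz2 by 0.59. Of 3 measured genes that the marker list assigned to mast cells 2 passed, as Cpa3 fell by 0.25 and Mcpt8 by 0.45. Prtn3 and Tpsb2, the other marker of each list, stood at 0.0093 and -0.091 and did not pass. With all arrays 0 of the 7 passed, with medians of -0.25 for the granulocyte and monocyte list and -0.17 for the mast cell list. On replicate 3 at 23 h Mpo, Elane and Lyz2 stood at 0.88, 1.04 and 1.08, against -0.90, -0.78 and -0.95 on replicate 1 and -0.92, -1.10 and -1.05 on replicate 4. Prtn3 stood at 0.32 on replicate 3, against 0.09 and 0.10 on replicates 1 and 4, on the same side of 0. The markers' part in the Slc7a5 result was not tested. In treated cells the granulocyte and monocyte markers had a median of -0.28 with 0 called, where Slc7a5 stood at -0.01. Of 4 markers of pluripotent cells, 0 passed in either comparison. Progenitor, erythroid, megakaryocyte, lymphoid, plasma cell and fibroblast markers likewise had 0 calls in treated cells and over the mean of the times, with or without both arrays.

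By the root mean square difference over the 19 arrays, after each dye orientation's mean was removed, the genes most like Slc7a5 among 9182 were Usp25 (0.21), Anxa1 (0.22) and Ccl6 (0.23). Anxa1 was also first over the 5 group means. Anxa1 also lay above 0 on the arrays in doubt, at 0.53 on replicate 4 at 7 h and 0.56 on replicate 3 at 23 h. Both arrays were among the 19 used to find Usp25, Anxa1 and Ccl6. The nearest to Xbp1 was Snx11 (0.14), to Edem1 Tpp1 (0.09) and to Sil1 Rab29 (0.08). A flat line at 0 gave 0.24, 0.14 and 0.13 for these members. Over the 5 group means, Snx11, Tpp1 and Rab29 ranked only 1961, 24 and 106 among 9182. The nearest to Asns was Slc25a45, at 0.50, against 0.69 for a flat line at 0.

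The genes of 8 lists around these 5 were also counted. In treated cells 0 of 136 tested list genes passed the adjusted test. ER chaperones and folding enzymes had 16 of 23 genes below 0 (median -0.12), and ER stress sensors and transcription factors 6 of 8 (median -0.03), against a median of 0.01 over all features. Ern1, Atf6, Eif2ak3 and Eif2ak4, the genes of IRE1, ATF6, PERK and GCN2, were not among the features. These sensors themselves are therefore not in the counts. Hspa5 stood at -0.34, -0.48, -0.35 and -0.30 on the treated arrays (estimate -0.37, limma adjusted p = 0.792). Ero1a, the oxidase that renews disulphide bonding in the ER, stood at -0.94, -0.86, -1.11 and -0.79 (estimate -0.92, adjusted p = 0.792). Both were below 0 on every treated array, as were 7.59% of features, and neither passed. Erp44, which holds client proteins in the early secretory pathway by thiol bonds, was also among the 3 with the smallest p of its list, with an estimate of 1.24 (adjusted p = 0.792, n = 3). It stood at -0.61 and -0.07 on the Cy5 arrays and at 2.82 on replicate 4, and replicate 3 had no value, so the estimate rests on 1 Cy3 array. The remaining ER lists held estimates on both sides of 0. For ER-associated degradation, the 3 genes with the smallest p were Herpud1 (-0.24), Nploc4 (0.21) and Man1b1 (-0.18). For the ER translocon and signal peptide processing they were Spcs1 (0.27), Srp72 (-0.20) and Sec61a1 (1.10, SE 0.59).

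The amino acid lists were mixed in treated cells. Cytosolic aminoacyl-tRNA synthetases had 12 of 17 above 0 (median 0.11), amino acid synthesis enzymes 11 of 15 (median 0.06), amino acid transporters 5 of 14 (median -0.05), and genes of ATF4 and eIF2 alpha signalling 12 of 21 (median 0.07). Among those with the smallest p, Slc1a4 stood at 0.44, 0.29, 0.77 and 0.58 and Slc38a2, the SNAT2 transporter, at 0.35, -0.02, 0.73 and 1.21. Slc1a5, the ASCT2 transporter of glutamine and other neutral amino acids, stood at -1.11, -0.82, 0.30 and 0.23, below 0 in Cy5 and above in Cy3 (estimate -0.35, adjusted p = 0.793). Atf4 itself stood at -0.07, -0.10, -0.60 and -0.52 (estimate -0.32, adjusted p = 0.793), below 0 on the arrays where Asns was above. Ddit4, a stress-induced inhibitor of mTORC1, had an estimate of -0.52 (adjusted p = 0.793), and Ddit3, the factor CHOP, of -0.33 (adjusted p = 0.820). Rars had the highest synthetase estimate at 1.05, with values of 2.70, 1.06, 0.35 and 0.11 on replicates 1 to 4.

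**Figure D3:**
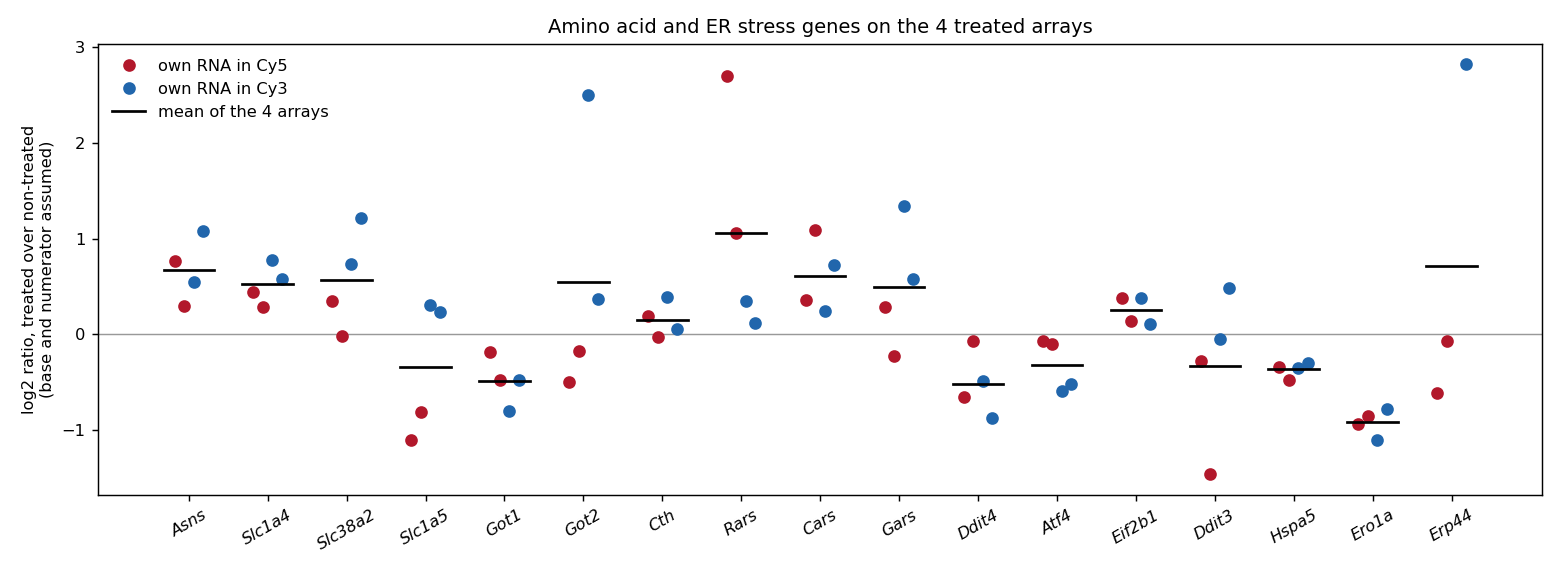
Log2 ratio of treated over non-treated cells (vertical axis) for Asns and genes of the amino acid, ATF4 and ER chaperone lists. The list genes are those named by the fixed rule in treated cells, on 4 arrays each (Erp44 on 3). Points are arrays, red with own RNA in Cy5 and blue in Cy3, and bars are means. Asns, Slc1a4 and Rars are among those above 0 on all 4 arrays, as were 6.48% of features. Hspa5, Ero1a and Atf4 are among those below 0 on all 4, as were 7.59% of features.

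In the time course, 0 of 137 list genes tested passed over the mean of the times with all arrays. Without both arrays in doubt 7 passed, all lower, where 1.35% of all features passed in that direction. They were Ero1a (-0.48), P4hb (-0.22), a protein disulphide isomerase, Ubxn4 (-0.16), of ER-associated degradation, Ddit4 (-0.45), Trib3 (-0.22), a pseudokinase that curbs ATF4 signalling, Psat1 (-0.22), of serine synthesis, and Nars (-0.22), the asparaginyl-tRNA synthetase. At 7 h Ddit4 stood at -0.44, -0.73 and -0.87 on replicates 1 to 3, and 0.44 on replicate 4, the array in doubt. Slc3a2, named after its values were seen like Trib3, is the heavy chain that pairs with Slc7a5 and stood at -0.08 (adjusted p = 0.896) over the mean of the times without both arrays, and its replicates at 3 h ranged from -0.21 to 1.61. Hspa5 at 7 h stood at 0.30, 0.27, 0.30 and 0.27, all above 0 (5.79% of features), with the array in doubt like the others (estimate 0.28, limma adjusted p = 0.667). Its estimates were -0.21 at 3 h, -0.21 at 12 h, -0.22 at 23 h and -0.09 over the mean of the times, and none passed.

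**Figure D4:**
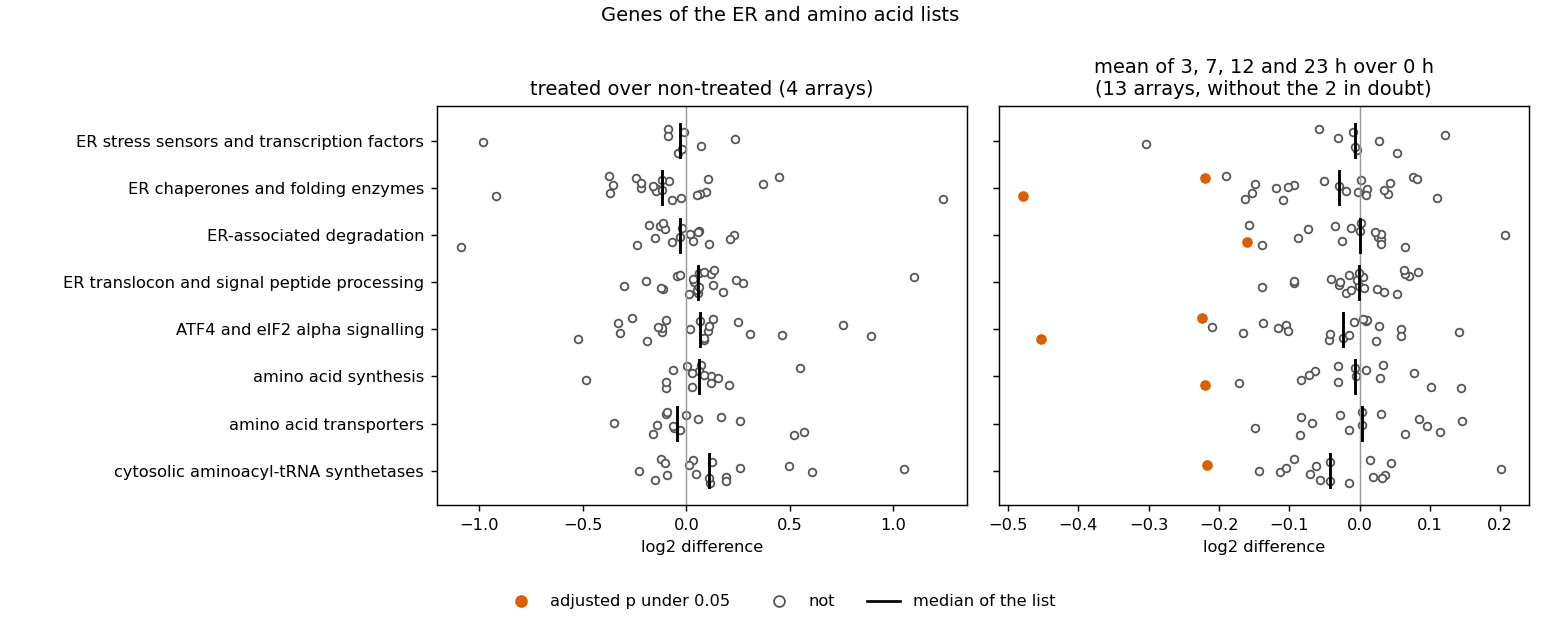
Log2 difference (horizontal axis) of each tested gene of 8 lists (rows), for treated over non-treated cells at left and the mean of 3, 7, 12 and 23 h over 0 h at right, without the 2 arrays in doubt. Filled orange points passed an adjusted p of 0.05, open ones did not, and bars are list medians. At left 0 genes are filled, and at right all 7 filled genes lie below 0.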

How the data were processed

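Total RNA of FDCPmix cells was labelled with Cy3 or Cy5 and hybridised to 2-colour arrays, per the labels' protocols. The authors deposited 1 log ratio per spot, read here as log2 (base, numerator, scale and normalization: not given in the sources used here). Column medians lay between -0.012 and 0.233. Extreme values of size 16.235 to 17.031, repeated on 8 to 29 spots, were set to missing, each array was centred on its median, and probes of a gene were averaged, which gave 16148 features. Between 19658 and 20158 of 20205 probes had a value. Precision is limited by how few arrays there are, and no intensities were used.

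Treated arrays (4) and time-course arrays (15) were fitted apart with limma 3.58.1 in R 4.3.3 (lmFit, eBayes, a term for dye). An earlier fit of all 19 arrays pooled their unequal spread, and this separate fit was chosen with its results known. Features with at most 1 missing value per group were tested, with Benjamini-Hochberg adjustment over all of them. If the 0 h reference was 1 RNA, the tests leave out its own spread, and the times share it. In all 36 fits were run: this one, 16 other settings and 19 that leave out 1 array. The steps were tested on simulated data.

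Genes named from the lists were those that passed, or else the 3 with the smallest p per list in treated cells and over the mean of the times, plus Atf4, Ddit3 and Hspa5, genes most alike each member, genes with the promoter core, and markers. The members, lists and markers were chosen with earlier results of these data known. Probe genes came from the platform table and RefSeq (GRCm38.p6). Promoters came from RefSeq.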

Additional observations from a re-analysis of the deposited data

Results flagged for a closer look

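In 20 groups of 4 arrays (5 genes in 4 time or treatment groups, 23 h having 3), 3 arrays stood apart from the rest of their group by Dixon's test, where chance gives about 1 in 20 groups. Slc7a5 on replicate 4 at 7 h stood at 0.84, against -0.50, -0.68 and -0.74 on the others, and that array has an extreme value of the sign opposite to its dye label. Sil1 on replicate 3 of the treated cells stood at -0.08, against -0.20, -0.22 and -0.20. Sil1 on replicate 1 at 7 h stood at -0.21, against 0.02, 0.00 and 0.04. Sil1 also differed between 23 h and 3 h in that every array lay above 0 at 23 h and below 0 at 3 h, as was so for 0.982% of features. The difference was 0.30 (limma adjusted p = 0.870).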

How the results depend on the processing

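In all, 1475 values of the 5 genes were recomputed over the alternative fits: 1401 kept their direction and their side of the threshold, 9 passed where they had not, and 65 changed sign, none of the latter passing in either fit. The 9 are all of Slc7a5 and lower: without both arrays in doubt it stood at -0.66 at 7 h, -0.50 at 12 h, -0.72 at 23 h and -0.49 over the mean of the times, with both turned at -0.69, -0.50, -0.68 and -0.49, and on the Cy5 arrays alone at -0.40 over the mean of the times. Leaving out both arrays, turning 1 or both, and leaving out 1 of them were chosen after seeing the data, and the cause of the changes below was not tested.

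Sign changes with the Cy3 signs changed were Asns in treated cells (-0.14), at 3 h (-0.25), at 7 h (0.39), over the mean of the times (0.034), 7 h over 3 h (0.64) and 23 h over 3 h (0.021), Slc7a5 in treated cells (0.14), at 3 h (0.055) and at 12 h (0.025), Xbp1 at 7 h (0.015), Edem1 at 23 h (-0.017) and 23 h over 3 h (-0.053), and Sil1 at 23 h (-0.026). On the Cy5 arrays alone they were Slc7a5 in treated cells (0.12) and Asns at 3 h (-0.21), 7 h (0.31) and 7 h over 3 h (0.52). On the Cy3 arrays alone they were Xbp1 at 3 h (-0.23), 7 h over 3 h (0.10), 12 h over 3 h (0.068) and 23 h over 3 h (0.075), Sil1 at 7 h (0.019), 12 h (0.047) and over the mean of the times (0.0078), Asns at 12 h (-0.085) and 12 h over 3 h (-0.38), and Slc7a5 at 7 h (0.052), 7 h over 3 h (0.19) and 23 h over 3 h (0.017). Asns at 7 h was 0.079 with array weights, 0.033 with quantile normalization, 0.36 without both arrays in doubt and 0.59 with 1 or both turned, and 7 h over 3 h was 0.32 without both and 0.55 with 1 or both turned. With both turned, Asns was 0.024 over the mean of the times, Sil1 -6e-04 at 23 h and Edem1 -0.07 for 23 h over 3 h. Xbp1 at 3 h was -0.024 with arrays scaled to the same spread and -0.0042 with quantile normalization, and Asns for 12 h over 3 h was -0.021 with that scaling.

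With each array left out in turn, values that crossed 0 ran from -0.033 to 0.094 for Edem1 and -0.057 to 0.03 for Slc7a5 in treated cells, from -0.084 to 0.12 for Xbp1 and -0.13 to 0.38 for Asns at 3 h, and from -0.074 to 0.078 for Edem1, -0.081 to 0.0061 for Sil1 and -0.42 to 0.38 for Asns at 7 h. At 12 h they ran from -0.029 to 0.089 for Edem1 and -0.034 to 0.022 for Sil1, and at 23 h from -0.72 to 0.069 for Slc7a5. For 7 h over 3 h they ran from -0.47 to 0.33 for Asns and -0.55 to 0.029 for Slc7a5, for 12 h over 3 h from -0.24 to 0.30 for Asns, and for 23 h over 3 h from -0.63 to 0.16 for Slc7a5.

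The number of features called also moved. In treated cells it was 0, and 758 with all 19 arrays in 1 fit, Asns not among them. At 3 h it was 0, against 16 without both arrays, 3 on Cy5 arrays, 19 with 7 h replicate 4 turned and 28 with both turned. At 7 h it was 0, against 77, 3, 77 and 202 in the same order. At 12 h it was 3, against 14 with array weights, 0 with the repeated extremes kept, 0 with values required on every array, 5 with each probe kept apart, 40 without both arrays, 0 on Cy5 arrays, 1 on Cy3 arrays and 60 with both turned. At 23 h it was 0, against 59 without both, 17 on Cy5 arrays and 128 with both turned. Over the mean of the times it was 0, against 2 with the Cy3 signs changed, 342 without both, 25 on Cy5 arrays, 101 with 1 turned and 535 with both turned. For 23 h over 3 h it was 0, against 12, 12 on Cy5 arrays, 4 and 20, and for any difference between times 0, against 1 with the Cy3 signs changed, 1 with quantile normalization, 7 without both, 2 on Cy5 arrays, 4 with 1 turned and 20 with both turned. With each array left out the counts ran from 0 to 8 at 3 h, 0 to 12 at 7 h, 0 to 10 at 12 h, 0 to 1 at 23 h, 0 to 65 over the mean of the times, 0 to 3 for 23 h over 3 h and 0 to 6 for any difference.

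Whether the replicate numbers pair the arrays was not settled. With group and dye means removed, same-numbered arrays of different times had a mean correlation of -0.01 (-0.12 to 0.09 over 21 pairs). Arrays with other numbers had a mean of 0.002. The pairs include both arrays in doubt, so these values cannot show that pairing was absent. With a replicate block in the time course the counts stayed at 0 and, at 12 h, 3, and Slc7a5 over the mean of the times stood at -0.29 (limma adjusted p = 0.768). No paired analysis was possible for the treated cells because a block leaves no residual there.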
